A study of Mus musculus with 8 samples.

Results

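The 6 genes described here, Flt3, Cd34, Cd27, Cd52, Plac8 and Emb, are transcripts whose levels rise as blood stem cells become multipotent progenitors, and most of their products sit at the cell surface. They were picked by name out of the 53715 genes counted, each identifier being matched to its symbol through a GENCODE mouse annotation, and all 6 were found and passed the filter on low counts. RNA came from mouse bone marrow sorted for stem cells by the phenotype LSK CD48- CD150+, that is, cells without lineage markers that carry Sca-1 and Kit, lack CD48 and carry CD150. The 8 libraries were made from 4 mice labelled Gata2 WT and 4 labelled Gata2; Mx1-Cre Heterozygote, all aged 8 to 12 weeks and given 6 doses of pIpC. Mx1-Cre is a recombinase driven by an interferon-responsive promoter that is active in many cell types, and pIpC, a mimic of double-stranded RNA, raises the interferon that switches it on. Whether Mx1-Cre was present in the WT mice is not given by the labels, so an effect of the transgene and an effect of the Gata2 allele cannot be told apart. The question put by the design is whether the stem cell transcriptome differs between these genotypes.

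Multipotent progenitors arise from stem cells and lose long-term self-renewal while gaining the capacity for rapid output of lineage-restricted cells. In mouse marrow the step is followed at the cell surface: CD150 is lost, CD48 and CD34 are gained, CD27 becomes uniform, and the receptor FLT3 appears on the lymphoid-primed fraction. The sort therefore set these cells on the stem cell side of that boundary by CD150 and CD48 protein, and none of the 6 genes was a sort marker.

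Read depth ran from 16750778 to 22861884 fragments assigned to genes per library. Gata2 transcripts measured 29.1 to 45.3 CPM (counts scaled to a common library total) under the WT label and 35.5 to 61.9 CPM under the heterozygote label, a log2 fold change of 0.33 (SE 0.23, edgeR adjusted p = 0.858), so the label was not borne out by the total transcript. Directions below follow the deposited labels. Of the stem cell markers, Kit, Ly6a, Slamf1, Procr, Hlf and Mecom were present in every library, and Fgd5 was low, at 0 to 1.47 TPM (a level corrected for gene length as well as for the library total). Of 6 B cell markers 2 and of 8 T and NK cell markers 5 had 0 counts in all 8 libraries, while Cd79b and Nkg7 were present in each.

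The letters upstream of 3 members are shown because the genotypes differ in a GATA factor, and because these genes held the largest log2 fold change of the 6 (Flt3) and the smallest ones (Cd34 and Cd27). Emb is not printed, since its window (chr13:117220323-117220572) lies within the annotated span of the gene. RefSeq start sites on GRCm38.p6 were found for 5 of the 6 genes. In the 250 bases before each start, the letters GATA with A or T before them and A or G after them were sought on either strand. They occurred in 2 of these 5 genes, Cd34 and Cd27, and in 26.6% of all 32817 promoters of the same length. That share is per promoter and not per gene. Plac8, which is not printed, had 2 windows, neither with a match, and the second lies within the annotated span of the gene. The letters GAAANNGAAA of an interferon response element occurred in none of the 5, and in 2.97% of all promoters. A match describes these letters and is not a binding site, and no match says only that the letters are not in the window. Whether matches go with the log2 fold changes, by which the printed genes were picked, was not tested. Capitals mark the GATA matches, all of them on the reverse strand of the run as printed.
Flt3, chr5:147400490-147400739, minus strand, no match: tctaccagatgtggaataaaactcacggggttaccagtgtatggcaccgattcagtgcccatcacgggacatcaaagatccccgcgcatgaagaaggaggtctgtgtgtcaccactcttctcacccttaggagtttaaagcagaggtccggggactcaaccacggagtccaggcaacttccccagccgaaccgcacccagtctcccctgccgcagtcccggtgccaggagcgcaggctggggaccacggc
Cd34, chr1:194938571-194938820, plus strand, 1 match 226 bases upstream: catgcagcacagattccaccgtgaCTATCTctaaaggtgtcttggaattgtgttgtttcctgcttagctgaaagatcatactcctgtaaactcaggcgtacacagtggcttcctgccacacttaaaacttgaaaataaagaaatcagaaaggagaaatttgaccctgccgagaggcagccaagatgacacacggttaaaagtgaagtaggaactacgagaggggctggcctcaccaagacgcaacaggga
Cd27, chr6:125237028-125237277, minus strand, 2 matches 249 and 169 bases upstream: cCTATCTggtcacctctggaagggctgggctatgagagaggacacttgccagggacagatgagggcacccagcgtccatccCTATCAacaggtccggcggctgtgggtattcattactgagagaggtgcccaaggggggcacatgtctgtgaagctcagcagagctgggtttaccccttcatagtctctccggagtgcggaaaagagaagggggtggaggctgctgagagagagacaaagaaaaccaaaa

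Corrected for length, the 6 genes spanned more than 2 orders of magnitude in wild-type stem cells. Plac8 was the most abundant, at 298 to 633 TPM (mean 459 ± 140, SD, n = 4), above 97.3% of the 13992 genes tested. Cd27 followed at 172 to 198 TPM (186 ± 10.9) and Cd34 at 96.7 to 199 TPM (146 ± 44.4), both above 90% of genes by this measure (92.3% and 90.4%). Thus transcripts of 2 genes whose proteins are used to tell progenitors from stem cells were abundant in cells sorted as stem cells. Emb measured 48.9 to 67.1 TPM (58.3 ± 8.15) and Cd52 31.4 to 54.7 TPM (39.6 ± 10.6). Flt3 was far below the rest, at 2.34 to 4.09 TPM (3.01 ± 0.803), above only 25.8% of genes, and its mean was 13.1 times lower than that of Cd52, its neighbour in the order.

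The order held in all 8 libraries for Plac8 over Cd27, for Cd34 over Emb, for Emb over Cd52 and for Cd52 over Flt3. Cd27 exceeded Cd34 in 7 of 8, the exception being wild-type replicate 2. Among wild-type libraries the ranges of Cd27 and Cd34 overlapped, so these neighbours did not differ beyond their spread there. The wild-type ranges of Emb and Cd52 overlapped too, although Emb was the higher within each library. Under the heterozygote label no neighbours overlapped. For comparison on the same scale, Ly6a, which encodes the sort marker Sca-1, averaged 210 TPM, Kit 49.3 TPM and Slamf1, which encodes CD150, 14.8 TPM in wild-type libraries. Cd48 averaged 52.5 TPM although cells bearing the protein had been removed.

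**Figure D1:**
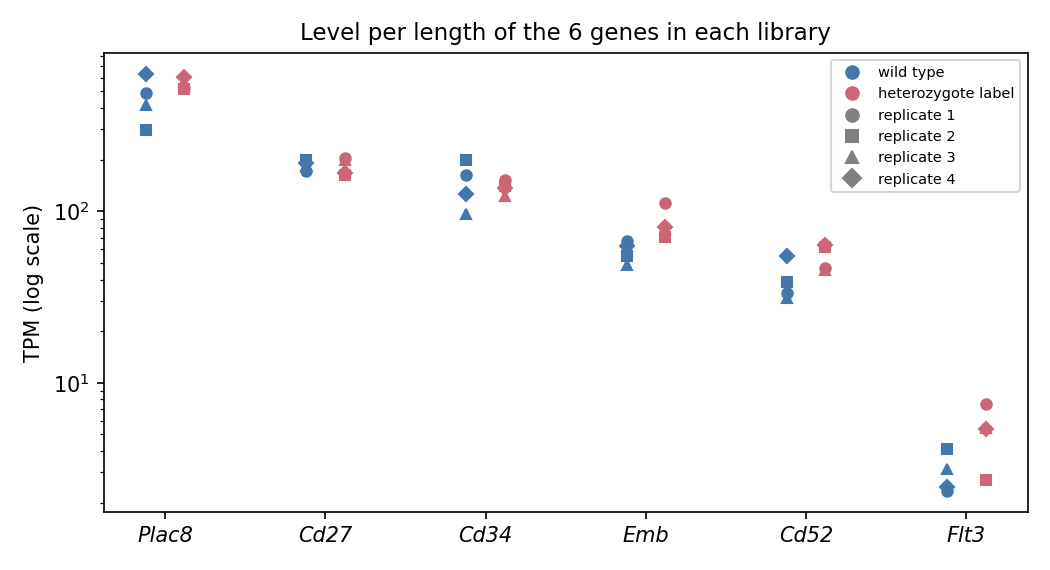
Level per length (TPM, log axis) of each gene in the 8 libraries, wild type in blue and heterozygote label in red, with a symbol shape for each replicate. Plac8 lies at 298 to 633 TPM in wild type and Flt3 at 2.34 to 4.09 TPM, with the other 4 genes between them.

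Between the genotypes, no member passed the threshold of an adjusted p of 0.05 in edgeR's quasi-likelihood test with Benjamini-Hochberg adjustment, and neither did any of the 13992 genes tested (0%), of which 792 had an unadjusted p under 0.05. By limma-voom 0 genes passed as well, and by DESeq2 79. All 6 log2 fold changes, heterozygote label over wild type, were at or above 0, from 0.0034 for Cd34 to 0.88 for Flt3, with a median of 0.42 against -0.018 over all genes tested. The signs of Cd34 and Cd27 turned in other treatments of the data, among them scaling by library size alone. At an unadjusted p under 0.05 stood 2 members, Emb and Flt3, both higher under the heterozygote label, where 2.37% of all genes were higher and 3.29% lower at that p. Emb was the single member whose 2 sets of libraries did not overlap, as was so for 1.65% of genes in the higher and 1.82% in the lower direction. The genes were chosen with earlier results of these data known, so these counts are a description and not support. In bulk RNA, a change in the share of cells of a type and a change of RNA per cell cannot be told apart.

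**Figure D2:**
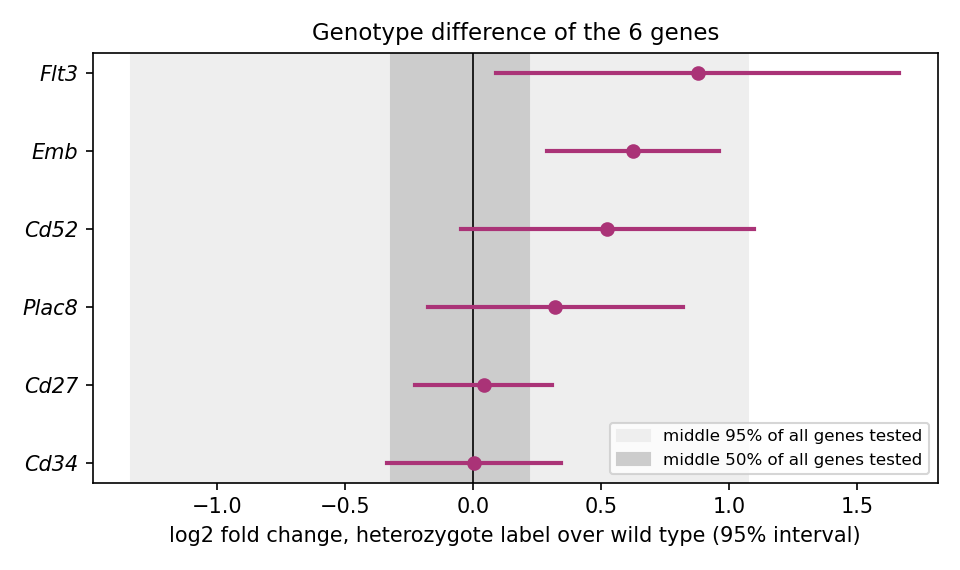
Log2 fold change (heterozygote label over wild type) with its 95% interval for each gene from the fit across all genes, over bands holding the middle 50% and 95% of all genes tested. The intervals of Emb and Flt3 lie above 0, while those of the other 4 genes include it.

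Flt3 encodes the receptor tyrosine kinase for FLT3 ligand, which drives expansion of lymphoid-primed progenitors and dendritic cells. The gene (ENSMUSG00000042817.15) lies at chr5:147330741-147400489 on the minus strand of GRCm38, with 25 merged exons. Wild-type replicates 1 to 4 held 5.17, 8.74, 8.14 and 6.03 CPM, and heterozygote-labelled replicates 1 to 4 held 17.8, 6.67, 13.7 and 13.4 CPM. Thus 3 of the 4 heterozygote-labelled libraries lay above every wild-type library, and replicate 2 fell among the wild-type values. The means were 7.02 ± 1.69 and 12.9 ± 4.60 CPM (SD, n = 4 each), from 109 to 355 fragments per library. The log2 fold change was 0.88 (SE 0.35, unadjusted p = 0.0323, adjusted p = 0.850 by edgeR), with a 95% interval of the fold from 1.07 to 3.17. Exact permutation of the genotype over the log2 CPM values, two-sided, gave p = 0.0857, and the 70 assignments cannot go below 0.0286. Left-out libraries moved the log2 value between 0.69 and 1.09.

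Emb encodes embigin, a membrane glycoprotein of the immunoglobulin superfamily that aids cell adhesion and escorts the monocarboxylate transporter MCT2 to the membrane. The gene (ENSMUSG00000021728.8) spans chr13:117208536-117274415 on the plus strand, with 12 merged exons. Replicates 1 to 4 measured 166, 130, 141 and 172 CPM under the WT label, against 296, 196, 223 and 225 CPM under the heterozygote label. Every heterozygote-labelled library exceeded every wild-type library, with replicate 1 the highest. The means were 152 ± 19.7 and 235 ± 43.1 CPM (SD, n = 4 each), a fold of 1.54 with a 95% interval from 1.22 to 1.95. On the log2 scale this was 0.63 (SE 0.15). By edgeR its unadjusted p was 0.00201, rank 31 among the genes tested, and its adjusted p 0.850. DESeq2 gave it an adjusted p of 0.0316 and called 0.262% of the genes with an adjusted p as higher. The exact two-sided permutation test gave p = 0.0286, the smallest the design can give. In all 18 other treatments of the data the value stayed above 0 with an unadjusted p under 0.05, between 0.50 and 0.70, while the adjusted p ranged from 0.0316 to 1.0. Correcting each library for its dependence on GC and length left it at 0.64. Gm17509, on the opposite strand, overlaps 686 of the 6906 exon bases, and reads were counted by strand.

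Cd34 encodes a sialomucin of the cell surface that is low on adult mouse long-term stem cells and gained as they differentiate. The gene (ENSMUSG00000016494.9) is at chr1:194938819-194961279 on the plus strand, with 7 merged exons. Wild-type replicates 1 to 4 measured 424, 502, 294 and 363 CPM, and heterozygote-labelled replicates 1 to 4 measured 422, 406, 363 and 397 CPM. The wild-type libraries spread on both sides of the heterozygote-labelled ones, with replicate 2 highest and replicate 3 lowest of all 8. The means were 396 and 397 CPM, with coefficients of variation of 22.3% and 6.30% (n = 4 each). The fold was 1.00 with a 95% interval from 0.791 to 1.27 (adjusted p = 0.998 by edgeR), so a change beyond that range in either direction lay outside the interval.

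Cd27 encodes a receptor of the tumour necrosis factor receptor superfamily that binds CD70 and signals through TRAF2 and TRAF5. The gene (ENSMUSG00000030336.14) is at chr6:125232622-125237010 on the minus strand, with 5 merged exons. Replicates 1 to 4 measured 144, 160, 180 and 176 CPM under the WT label, against 183, 152, 188 and 155 CPM under the heterozygote label. The groups overlapped, and the within-group coefficients of variation, 9.99% and 10.8%, were the closest to each other of the 6 genes. The means of 165 ± 16.4 and 169 ± 18.3 CPM (SD, n = 4 each) gave a fold of 1.03 with a 95% interval from 0.855 to 1.24 (adjusted p = 0.964 by edgeR). Corrected for each library's dependence on GC and length, the log2 value was 0.20 in place of 0.041 (edgeR, unadjusted p = 0.246). Mir8113, a microRNA gene on the same strand, shares 129 bases with the exons, and the counting command names no option to assign a fragment to several genes.

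Cd52 encodes a very short GPI-anchored glycopeptide that is abundant on lymphocytes. The gene (ENSMUSG00000000682.7) is at chr4:134082448-134095082 on the minus strand, with 4 merged exons. Wild-type replicates 1 to 4 measured 14.2, 16.0, 15.6 and 25.7 CPM, and heterozygote-labelled replicates 1 to 4 measured 21.3, 29.3, 21.9 and 30.2 CPM. The sets overlapped through wild-type replicate 4 alone, which lay above heterozygote-labelled replicates 1 and 3. The means were 17.9 ± 5.29 and 25.7 ± 4.71 CPM (SD, n = 4 each), a log2 fold change of 0.52 (SE 0.26, unadjusted p = 0.0690, adjusted p = 0.850 by edgeR). The 95% interval of the fold ran from 0.966 to 2.14, and the exact two-sided permutation test gave p = 0.0857.

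Plac8 encodes a small cysteine-rich protein of myeloid and lymphoid cells that is found largely inside the cell, so the heading of surface genes does not describe it well. The gene (ENSMUSG00000029322.12) is at chr5:100553725-100572245 on the minus strand, with 5 merged exons. Replicates 1 to 4 measured 280, 164, 276 and 399 CPM under the WT label, against 316, 330, 365 and 387 CPM under the heterozygote label. Wild-type replicates 2 and 4 held the lowest and the highest value of all 8 libraries, and the heterozygote-labelled values lay between them. The means were 280 ± 96.0 and 350 ± 32.1 CPM (SD, n = 4 each), a log2 fold change of 0.32 (SE 0.22, adjusted p = 0.855 by edgeR) with a 95% interval of the fold from 0.885 to 1.76. With libraries left out, the value ran from 0.15 without wild-type replicate 2 to 0.54 without wild-type replicate 4.

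**Figure D3:**
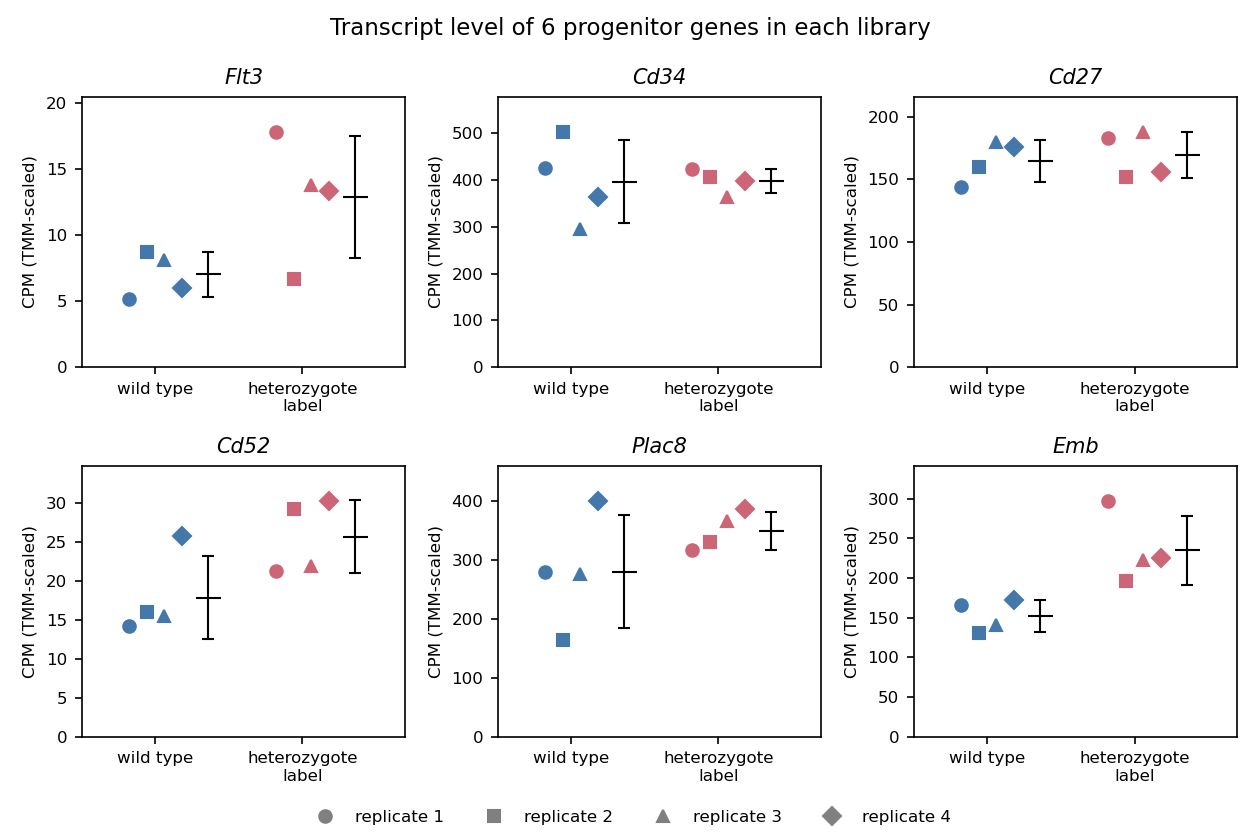
CPM in each library (symbols by replicate) with the group mean ± SD (black bar, n = 4) for the 6 genes, each axis starting at 0. The 4 heterozygote-labelled libraries of Emb lie at 196 to 296 CPM, above the wild-type libraries at 130 to 172 CPM, and the groups of the other 5 genes overlap.

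Shared variation of the members from mouse to mouse was not established over the 8 libraries. Of 15 pairs, 12 had a positive Pearson correlation of log2 CPM over the 8 libraries, from -0.51 (Cd34 with Cd27) to 0.70 (Flt3 with Emb), and 0 passed after adjustment over the pairs (smallest adjusted p = 0.408, exact permutation). Cd52 and Plac8 were the pair with the smallest unadjusted p (r = 0.70, p = 0.0334, Spearman's rho = 0.79, p = 0.0279, exact permutation over 8 libraries), and r was 0.72 without the 2 libraries farthest from the median of Cd52. For Flt3 and Emb, r was 0.70 (p = 0.0544, rho = 0.60, p = 0.132, exact permutation). It was 0.29 without heterozygote-labelled replicates 1 and 3, the 2 farthest from the median of Flt3. Leaving out extremes narrows the range of Flt3, so the lower r does not show that the relation rested on them. As deviations from the genotype means, 6 of 15 pairs were positive and the median r was -0.024, against 0.24 before. Heterozygote-labelled replicate 1 lay above the mean over libraries in all 6 genes, and wild-type replicates 1, 2 and 3 lay above it in 1 gene each.

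**Figure D4:**
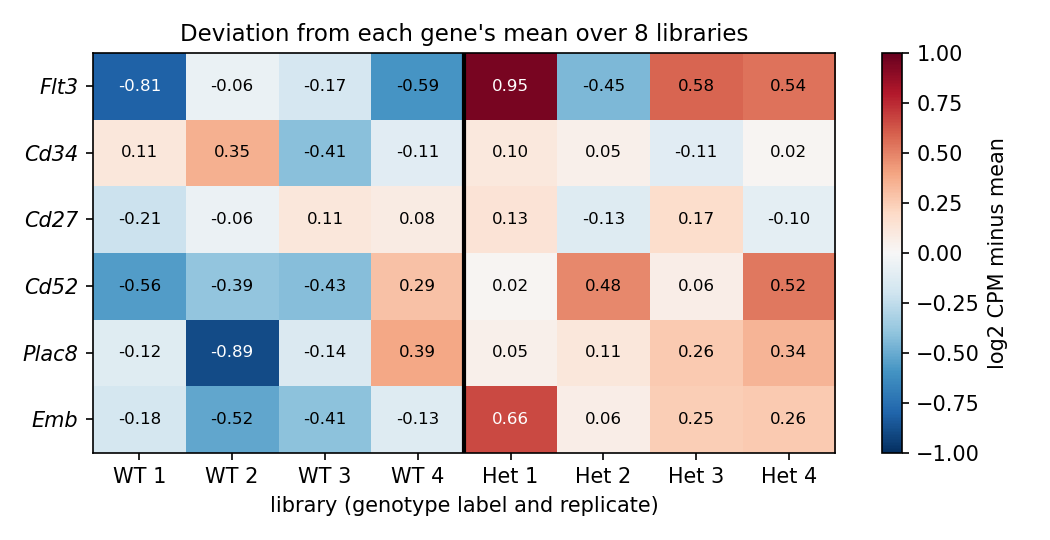
Deviation of log2 CPM from each gene's mean over the 8 libraries, in red above and blue below, with wild-type libraries left of the black line. Emb is below 0 in every wild-type column and above 0 in every heterozygote-labelled column, and Flt3, Cd52 and Plac8 each have 1 library on the other side.

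Mice of both sexes were present in equal numbers in each genotype, as read from Xist and Y-linked counts, and served as a check on the differences. In Emb the difference in mean log2 CPM was 0.61 in libraries with Xist and 0.62 in libraries with Y-linked counts (2 against 2 each). In Flt3 it was 1.45 and 0.18, and in Plac8 0.066 and 0.71, in the same order. A test of the difference itself, added after the data were seen, did not pass for either gene (edgeR interaction, unadjusted p = 0.112 and 0.164, adjusted p = 1.0 for both).

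Ligands and signalling partners of the receptors were measured in the same libraries. Flt3l, the FLT3 ligand, was tested at 3.95 and 2.68 CPM on average under the WT and the heterozygote label (SD 1.48 and 0.752, n = 4 each; log2 fold change -0.56, SE 0.48). Of 16 tested genes that carry the FLT3 signal or restrain it, the ligand included, 9 were higher and 7 lower, with a median of 0.036 and 0 at an unadjusted p under 0.05 by edgeR. Those with the smallest p were Lyn, a SRC family kinase, at -0.40 (SE 0.23), and Pik3cb, a PI3 kinase subunit, at 0.98 (SE 0.76). Cd70, the CD27 ligand, had 10 counts in wild-type replicate 3 and 0 in the other 7 libraries, and was not tested. Of 8 tested genes of TRAF signalling, 2 were higher and 6 lower, with a median of -0.49. None had an unadjusted p under 0.05 by edgeR. The smallest p belonged to Traf3, at 1.93 (SE 1.14) from 0.0612 to 4.75 CPM per library, followed by the CD27 adaptors Traf5, at -0.77 (SE 0.46), and Traf2, at -0.84 (SE 0.51).

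Of 4 tested partners of embigin 1 was higher and 3 lower, and none had an unadjusted p under 0.05 by edgeR. Bsg, which encodes the related chaperone basigin, measured 615 ± 34.7 and 600 ± 19.0 CPM (SD, n = 4 each; log2 fold change -0.037, SE 0.083). Slc16a7, which encodes MCT2, was at 0.31 (SE 0.32, 95% interval -0.40 to 1.03, which includes the value of Emb), and Slc16a1, which encodes MCT1, at -0.065 (SE 0.15). Whether these differed from Emb was not tested. Of 4 tested genes in the group of CD34 relatives and partners 3 were higher and 1 lower, with a median of 0.26. The adaptor genes Crk and Crkl were at 0.24 (SE 0.15) and -0.69 (SE 0.56). Of 7 genes for GPI anchors, which CD52 carries, 3 were higher and 4 lower. Pigt, a subunit of the transamidase, was the lone one at an unadjusted p under 0.05, at -2.01 (SE 0.69, unadjusted p = 0.0164, adjusted p = 0.850 by edgeR). Pigk, another subunit, was at 0.20 (SE 0.11).

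Other surface genes of progenitors were mixed in direction, with 8 of 12 higher, 4 lower and a median log2 fold change of 0.097. Cd53, a leukocyte tetraspanin, measured 213, 107, 207 and 189 CPM in the WT replicates 1 to 4, against 317, 286, 302 and 321 CPM under the other label, without overlap (log2 fold change 0.78, SE 0.19, adjusted p = 0.850 by edgeR and 0.0428 by DESeq2). Cd37, another tetraspanin, went the other way, at -0.52 (SE 0.19, unadjusted p = 0.0209, adjusted p = 0.850 by edgeR). Cd48 was at 0.058 (SE 0.23). Of 12 lymphoid-primed genes 6 were tested, of which 3 were higher and 3 lower. Il2rg, a shared cytokine receptor chain, was at 0.38 (SE 0.14, unadjusted p = 0.0237, adjusted p = 0.850 by edgeR), the one gene of the list at an unadjusted p under 0.05, and Satb1, a chromatin organiser, at 1.09 (SE 0.63). Of the untested genes 3 were at 0 in all libraries. Rag2, a recombinase subunit of lymphocyte precursors, had 55 counts in wild-type replicate 4 and 0 in the other 7 libraries. Dntt, the terminal transferase of the same cells, had 35 counts in wild-type replicate 4 and at most 10 elsewhere. That library was also the wild-type one highest in Cd52 and Plac8. Its sum over the 12 lymphoid-primed genes, at 249 CPM, was nevertheless the lowest of the 8 libraries, as was its Il2rg, at 185 CPM. The part of lymphocyte precursors in the levels of Cd52 and Plac8 was not tested. Of 10 myeloid-primed genes 5 were higher and 5 lower, none at an unadjusted p under 0.05 by edgeR, with Csf2ra at -0.90 (SE 0.46) and Cebpa at 1.65 (SE 1.51). Of 10 cell cycle genes 3 were higher and 7 lower, and the 2 at an unadjusted p under 0.05 were both lower, Mcm5 at -0.42 (SE 0.17, unadjusted p = 0.0311) and Bub1b at -0.77 (SE 0.33, unadjusted p = 0.0452), each with an adjusted p of 0.850 by edgeR. On the stem cell side, 6 of 15 genes were higher and 9 lower, with 1 higher and 3 lower at an unadjusted p under 0.05. Vwf, which encodes von Willebrand factor, was at -0.87 (SE 0.22, adjusted p = 0.850 by edgeR and 0.0142 by DESeq2). Ly6a, which encodes the sort marker Sca-1, went the other way, at 87.7, 77.1, 117 and 104 CPM in the WT replicates 1 to 4 and 138, 124, 156 and 138 CPM under the other label, without overlap. Its log2 fold change was 0.53 (SE 0.15, unadjusted p = 0.00570, adjusted p = 0.850 by edgeR and 0.106 by DESeq2).

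Cd52, Cd27 and Plac8 are also transcribed in mature blood cells, and Cd34 in endothelium, so the summed levels of markers of those cells stand here beside them. The B cell sum, 104 to 129 CPM under the WT label and 103 to 125 CPM under the other, was nearly all Cd79b. The T and NK cell sum was 228 to 432 and 313 to 511 CPM, nearly all Nkg7. Cd3d, a subunit of the T cell receptor complex, had 4 to 10 counts in wild-type replicate 4 and the 4 heterozygote-labelled libraries and 0 in the other 3. Monocyte and neutrophil markers summed to 404 to 541 and 388 to 562 CPM, with none of the 8 at 0 throughout and Lyz2 the highest, and endothelial markers to 149 to 171 and 87.6 to 152 CPM, with none of the 7 at 0 throughout and Egfl7 the highest. Interferon-stimulated genes, which pIpC raises, summed to 955 to 1056 and 974 to 1145 CPM. Ifitm3, the highest, held 548 to 665 and 621 to 708 CPM of these sums, and Mx1 was at 0 in all 8 libraries. On the log2 scale Stat2 was at -0.88 (SE 0.53) and Ifitm3 at 0.15 (SE 0.096). Each of these sums, and Ifitm3, overlapped between the genotypes. Of the 11 interferon-stimulated genes tested, 1 did not overlap, as was so for 1.65% of all genes in the higher direction. It was Bst2, at 73.8 to 93.8 CPM under the WT label and 95.3 to 96.8 CPM under the other. The part of these cells and genes in the levels of the 6 genes was not tested.

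The genes whose log2 CPM followed each member most closely over the 8 libraries were taken as the 3 with the highest Pearson correlation among 10854 candidates. They were Mr1, Milr1 and Ablim1 for Flt3 (r from 0.91 to 0.93), Abi2, Atg10 and Laptm4b for Emb (0.93 to 0.94) and Cavin1, Rnf6 and Terf2ip for Cd34 (0.97). For Cd27 they were Fam174a, Tsg101 and Chchd5 (0.94 to 0.95), for Cd52 Cwc27, Surf1 and Snx5 (0.92 to 0.93), and for Plac8 Khsrp, Zfp932 and Col4a1 (0.95 to 0.97). None of the 18 was another of the 6 genes. Values of this size were the condition for naming these genes and describe these libraries only.

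**Figure D5:**
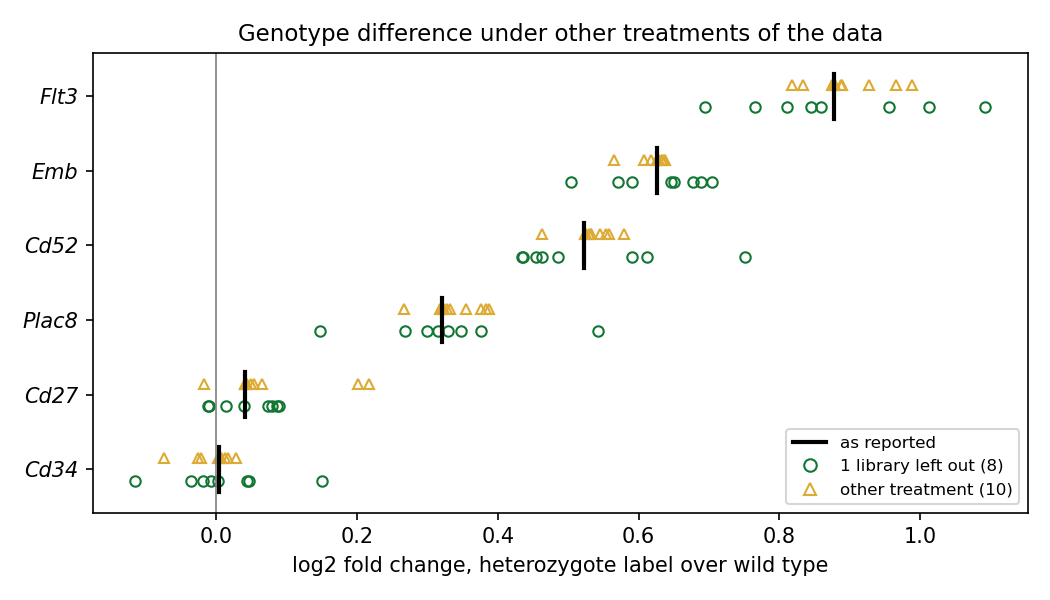
Log2 fold change of each gene as reported (black bar), with each of the 8 libraries left out (green circles) and under 10 other treatments of the counts (yellow triangles). Flt3, Emb, Cd52 and Plac8 stay above 0 throughout, and Cd27 and Cd34 lie on both sides of 0.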

How the data were processed

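Libraries came from 30 to 260 ng of total RNA (integrity above 8) after removal of ribosomal RNA; they kept strand, took 11 PCR cycles and were read as 75-base pairs, per the labels' protocols. The submitters' processing notes name Trim Galore, cutadapt, STAR 2.5.1b and the build GRCm38. The deposited values are raw fragment counts per gene by featureCounts 1.6.2 on GENCODE M17, reverse-stranded, per the file headers; the notes name version 1.5.1. The exon length column of the same files, as the authors deposited it, gave TPM. Of 53715 identifiers 53620 had a symbol in a GENCODE annotation of the same build.

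Genes were kept by filterByExpr, scaled by TMM (factors 0.946 to 1.08) and tested with edgeR 4.0.16 (robust quasi-likelihood, genotype the only term), with two-sided p adjusted over 13992 genes. DESeq2 1.42.0 on all genes with a count and limma 3.58.1 (voom with quality weights) were alternatives, beside other scalings, filters, a sex term, GC and length trends, a replicate block and each library left out. Log2 CPM carries a prior count of 2. No 2 libraries agreed within sampling noise (lowest chi-square per degree of freedom 38.1). Wild-type replicate 3 was at 100.4 and 104.3 from wild-type replicates 1 and 2, and at 38.9 to 51.4 from the heterozygote-labelled libraries. Deviations of genes from their means correlated with GC content (Spearman) at 0.22, 0.29, -0.20 and 0.086 in wild-type replicates 1 to 4. Under the heterozygote label the values were -0.041, -0.10, -0.13 and -0.056 for replicates 1 to 4. The labels do not tell litters, so p-values measure the spread between these 8 mice. PCR copies were not marked. The SEs and intervals of the log2 fold changes come from the edgeR fit, which includes the spread between libraries. The fits were tested on simulated data. The 6 genes and the related lists were chosen with earlier results of these data known. The genes named are the 6, Gata2, sort markers, stated partners, up to 2 genes of each list by unadjusted p, the highest marker of other cell types, and those followed most closely; a few others were named after their values were seen, among them Procr, Hlf, Mecom, Fgd5, Traf2, Rag2, Dntt and Cd3d.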

Additional observations from a re-analysis of the deposited data

How the results depend on the processing

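Emb, Flt3, Cd52 and Plac8 kept a positive log2 fold change in all 18 other treatments run, and no member passed the threshold except Emb with DESeq2 (0.63, adjusted p = 0.0316), where 1 member and 79 genes passed. Cd34 turned to -0.074 with library size alone, -0.026 with limma-voom, -0.022 with the GC and length trend removed, and between -0.11 (without wild-type replicate 3) and 0.15 (without wild-type replicate 2) with libraries left out. Cd27 turned to -0.018 with library size alone and ran from -0.012 to 0.090 with libraries left out. Between 1 and 3 members had an unadjusted p under 0.05 with a library left out. It was 1 without wild-type replicate 1 or heterozygote-labelled replicate 1, 3 or 4, and 3 without wild-type replicate 4. The share of all genes at that p was not counted in these fits. The counts of members therefore have no background beside them and are a description only. The median correlation between members turned from 0.24 to -0.024 on deviations from the genotype means. The cause of these turns was not tested. Same-numbered libraries deviated together by correlations of 0.044, 0.0057, 0.096 and 0.022 across genes, so they are not treated as pairs. They do share sex as read from transcripts, with Xist in replicates 1 and 4 and Y-linked counts in replicates 2 and 3 of both genotypes. With the replicate number as a block, 0 genes passed. Emb was then at 0.62 (edgeR, unadjusted p = 0.00107), Cd52 at 0.55 (edgeR, unadjusted p = 0.043) and Flt3 at 0.83 (edgeR, unadjusted p = 0.0943). Depth limits Flt3 most, at 109 to 355 fragments per library.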
